A study of Mus musculus with 6 samples.

Results

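The 10 genes described here, Acp5, Ctsk, Atp6v0d2, Dcstamp, Ocstamp, Nfatc1, Itgb3, Oscar, Calcr and Src, are known for their roles in the osteoclast, and their transcripts were measured in mouse lung. Their rows were found by symbol in a table of 49568 gene symbols, with 1 row for each of the 10, and the genes were chosen with earlier results of these data known. Bulk RNA-sequencing was performed on whole lungs of 3 TNF+ and 3 TNF- mice, with 1 library per mouse. The TNF+ mice belong to the TNF-Tg line, which overexpresses a single copy of the human TNF gene and develops inflammatory-erosive arthritis and pulmonary vascular disease, while the TNF- mice were wildtype littermates without the transgene. All 6 mice were female, 4 months old and on the C57BL/6 background, and none carried a complement gene deletion. Because RNA came from whole lung, a change in the number of cells of a type and a change in RNA per cell cannot be told apart. The promoter of the transgene is not given in the sources used here.

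The osteoclast is the multinucleated cell that resorbs bone. It forms from cells of the monocyte and macrophage lineage when the cytokine RANKL, in the presence of M-CSF, induces the transcription factor NFATc1, after which the precursors fuse, attach tightly to bone, and secrete acid and proteases. Lung contains no bone surface, but its macrophages share the lineage and express several of the same genes, including the acid phosphatase and the cathepsins of the lysosome.

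The promoter windows of 3 starts are shown because they belong to the resorption genes Acp5 and Ctsk, which differed in the size of their change, and to Oscar, which was near the limit of detection. Each line holds the 250 bases before a transcription start in RefSeq (build GRCm38.p6), written 5′ to 3′ on the strand of the gene, with every match to the searched motifs in capitals. The Acp5 window is chr9:22130599-22130848 (minus strand), the Ctsk window is chr3:95498960-95499209 (plus strand) and the Oscar window is chr7:3616158-3616407 (minus strand).
Acp5: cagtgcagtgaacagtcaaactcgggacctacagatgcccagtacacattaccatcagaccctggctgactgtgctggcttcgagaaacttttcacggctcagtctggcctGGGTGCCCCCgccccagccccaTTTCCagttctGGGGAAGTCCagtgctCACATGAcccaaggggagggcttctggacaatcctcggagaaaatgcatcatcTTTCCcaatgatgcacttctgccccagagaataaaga
Ctsk: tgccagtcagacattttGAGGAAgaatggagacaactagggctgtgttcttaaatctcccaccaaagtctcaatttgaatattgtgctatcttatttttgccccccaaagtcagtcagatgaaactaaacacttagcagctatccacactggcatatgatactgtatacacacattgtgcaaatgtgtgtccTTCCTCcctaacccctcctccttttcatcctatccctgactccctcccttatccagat
Oscar: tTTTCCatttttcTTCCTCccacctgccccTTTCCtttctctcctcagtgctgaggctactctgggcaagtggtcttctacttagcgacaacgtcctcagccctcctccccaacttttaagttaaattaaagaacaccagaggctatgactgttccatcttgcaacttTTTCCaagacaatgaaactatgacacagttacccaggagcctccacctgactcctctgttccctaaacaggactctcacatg

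The letters searched on both strands were GGAAA (the core bound by NFAT), TGANTCA (AP-1), TCATGTG (the M-box bound by MITF and TFE factors), GAGGAA (PU.1) and, as a degenerate pattern, the NF-kB site. GAGGAA and GGAAA overlap wherever GAGGAA is followed by A, and the NF-kB pattern can overlap itself. This Acp5 start, 1 of 3 listed for the gene, had an M-box 90 to 84 bases before the start, and the windows of the other starts had none. It also had 2 matches to the NFAT core and 3 to the NF-kB pattern (at 2 places, 1 of them matching on both strands). The last bases of the window lie in an exon of another Acp5 transcript. The Ctsk window had 2 PU.1 matches and none of the other letters, and the Oscar window had 3 NFAT cores and 1 PU.1 match. Over 32851 promoter windows of the same length, the M-box letters were found in 3.25%, AP-1 in 6.75%, PU.1 in 23.3%, NF-kB in 45.8% and NFAT in 55.6%. Windows were given for 5 of the 10 genes (also Calcr and Src), and no AP-1 match was found in any of their 8 windows.

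Total counts ranged from 25396923 to 32529408 per lung, so that 3 counts, the limit that a count of 0 allows, corresponded to 0.0922 to 0.118 counts per 1000000 counts of the library (CPM). TNF+ lung 1 had 5.22% of its counts in Gm42418, against at most 0.274% in any other lung, and TNF- lung 1 stood apart through genes of squamous epithelium and skeletal muscle. The same lung had 26 counts of Bglap and 43 of Bglap2, markers of bone-forming cells that had at most 3 counts in any other lung. The mouse Tnf row rose in TNF+ lungs, with 106, 213 and 405 counts in TNF+ lungs 1, 2 and 3 against 16, 14 and 35 in TNF- lungs 1, 2 and 3. Whether reads of the human transgene contributed to that row was not tested.

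Of the 10 genes, 6 were higher in TNF+ lungs (Acp5, Ctsk, Atp6v0d2, Dcstamp, Ocstamp and Src), Itgb3 was lower, Nfatc1 did not pass the test, and Oscar and Calcr had too few counts to be tested. Genotype was tested on the counts by quasi-likelihood in edgeR, p-values were adjusted after Benjamini and Hochberg across the 19199 genes that passed the filter on low counts, and a gene was called at an adjusted p under 0.05. Over all those genes 47.4% were called, 24% higher and 23.4% lower, so a call by itself was common in this comparison. The same shares are the background for every count of called genes in the pathway and marker lists below. Dcstamp and Ocstamp passed the filter on low counts only through the TNF+ lungs, which is a condition that favours a difference, so their calls are given as a description; the other 4 genes called higher are Acp5, Ctsk, Atp6v0d2 and Src. The median log2 fold change over all genes tested was 0.03. Normalised read counts did not overlap between the genotypes for 7 of the 8 tested members, 6 of them higher (Dcstamp and Ocstamp included) and 1 lower, while 58.7% of all tested genes did not overlap, 30.6% higher and 28.1% lower.

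**Figure D1:**
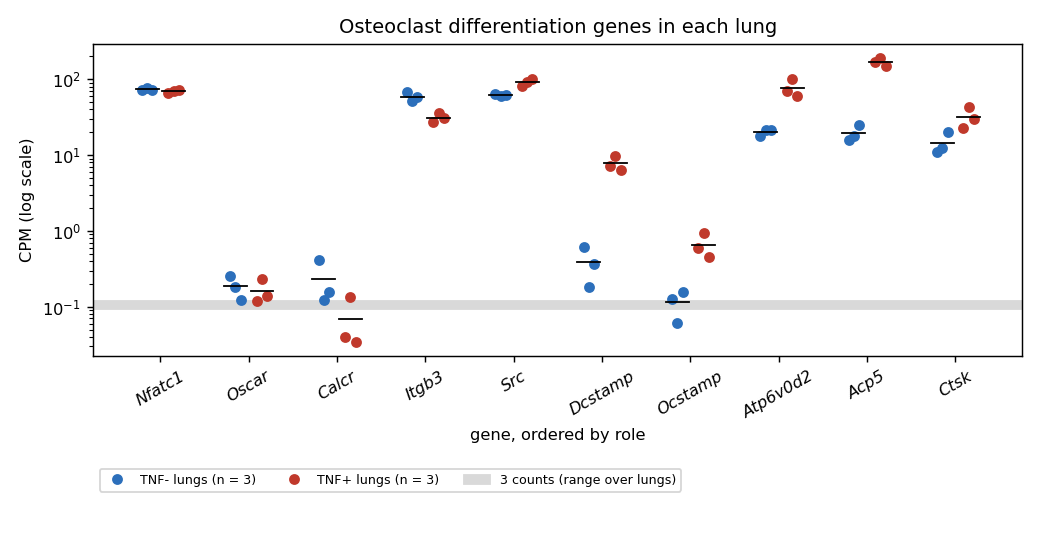
CPM (log scale) of the 10 genes in each lung, with TNF- lungs in blue, TNF+ lungs in red and a line at the mean of 3 lungs. The grey band marks 3 counts (0.0922 to 0.118 CPM), and Oscar, Calcr and the TNF- values of Ocstamp are among the lowest points, while Acp5, Atp6v0d2, Dcstamp, Ctsk and Src are higher and Itgb3 is lower in every TNF+ lung.

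Nfatc1 encodes the transcription factor regarded as the master regulator of osteoclast differentiation. Its normalised read count (counts scaled by TMM library size to the mean library) was 2235, 2151 and 2009 in TNF+ lungs 1, 2 and 3, and 2177, 2391 and 2099 in TNF- lungs 1, 2 and 3. The genotypes overlapped, and the TNF+ mean of 2132 ± 115 (SD, n = 3) lay within the spread around the TNF- mean of 2222 ± 151 (SD, n = 3). The log2 fold change was -0.06 with a standard error of 0.09, and the adjusted p from edgeR was 0.607. When each lung was left out in turn the log2 fold change stayed between -0.13 and -0.01. An antisense gene model, AC123818.1, overlaps Nfatc1, and the strand setting of the counting is not given in the sources used here.

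The genes upstream of Nfatc1 were not at the same level in both genotypes. Of 7 genes for the RANKL and M-CSF ligands, receptors and adaptor, 6 were higher, none was lower (1 without TNF- lung 3), and the median log2 fold change was 1.55. Tnfsf11, which encodes RANKL itself, had 23, 29 and 15 counts in TNF+ lungs and 3, 3 and 4 counts in TNF- lungs. The TNF+ counts were low in absolute terms but all exceeded the TNF- counts, and the log2 fold change was 2.93 with a standard error of 0.47 (edgeR adjusted p = 0.00147). Like Dcstamp and Ocstamp, Tnfsf11 passed the filter on low counts only through the TNF+ lungs, so its call is given as a description. Tnfrsf11a, the receptor RANK, had 324, 367 and 464 counts in TNF+ and 152, 110 and 164 counts in TNF- lungs, a 3.14-fold higher level (edgeR adjusted p = 0.000161). Tnfrsf11b, the decoy receptor osteoprotegerin that binds RANKL, was also higher, with 98, 114 and 157 counts in TNF+ against 53, 54 and 58 in TNF- lungs (2.57-fold, edgeR adjusted p = 0.000765). The ratio of Tnfsf11 to Tnfrsf11b per exon length was 0.296, 0.321 and 0.120 in TNF+ and 0.0713, 0.0700 and 0.0869 in TNF- lungs. These ratios, likewise a description, were chosen after their values were seen, and those of the TNF- lungs rest on 3 or 4 counts of Tnfsf11. They did not overlap, with TNF+ lung 3 closest to the TNF- lungs (two-sided exact permutation p = 0.1, the smallest that 3 against 3 lungs allow). From the summed counts of Tnfsf11 alone the ratio of TNF+ to TNF- was 7.75, with an exact 95% interval of 3.96 to 16.9 for counting error only.

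The M-CSF receptor Csf1r had 24777, 32481 and 31209 counts in TNF+ and 5442, 5510 and 5298 counts in TNF- lungs. The receptor's log2 fold change was 2.66, and its ligands Csf1 and Il34 had log2 fold changes of 1.34 and 1.55 (edgeR adjusted p of at most 6.81e-05 for each of the 3 genes). Traf6, the adaptor that couples RANK to NF-kB, was the 1 gene of this group without a call (log2 fold change -0.18, edgeR adjusted p = 0.23).

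The costimulatory arm of osteoclast differentiation signals through adaptors with an ITAM motif. All 7 tested genes of this group were higher, with a median log2 fold change of 1.58, and Siglec15 was not tested because it had at most 3 counts in any lung. Trem2, a receptor of macrophages and osteoclasts, had 2355, 3772 and 2596 counts in TNF+ and 81, 110 and 143 in TNF- lungs. Its adaptor Tyrobp (DAP12) rose by a log2 fold change of 2.85, against 4.93 for Trem2.

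Among the other NFAT family and calcineurin genes, 1 of 8 was higher, none was lower, and the median log2 fold change was 0.02. Without TNF- lung 2 the count of higher genes was 2, and without TNF- lung 3 the count of lower genes was 2. The gene that rose was Nfatc2, which had 735, 790 and 992 counts in TNF+ and 359, 384 and 508 in TNF- lungs (log2 fold change 1.23, edgeR adjusted p = 0.000252). Transcription factors that promote osteoclasts were higher in 8 of 11 cases and lower in 1, with a median of 1.71. Relb, an NF-kB subunit, and Tfec, a relative of MITF, rose most, by log2 fold changes of 2.58 and 2.48, while the AP-1 subunit Jun fell by 1.17 on the log2 scale. Transcription factors that restrain osteoclasts also included more genes that were higher, 4 of 6 with 1 lower, and a median of 0.88. Id2, an inhibitor of helix-loop-helix factors, rose by a log2 fold change of 1.15. Bcl6 had a log2 fold change of -0.31 and an adjusted p of 0.0427 in edgeR, which was above 0.05 in 7 of the alternatives, among them those without TNF+ lung 1 or 2 or TNF- lung 1 or 2.

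**Figure D2:**
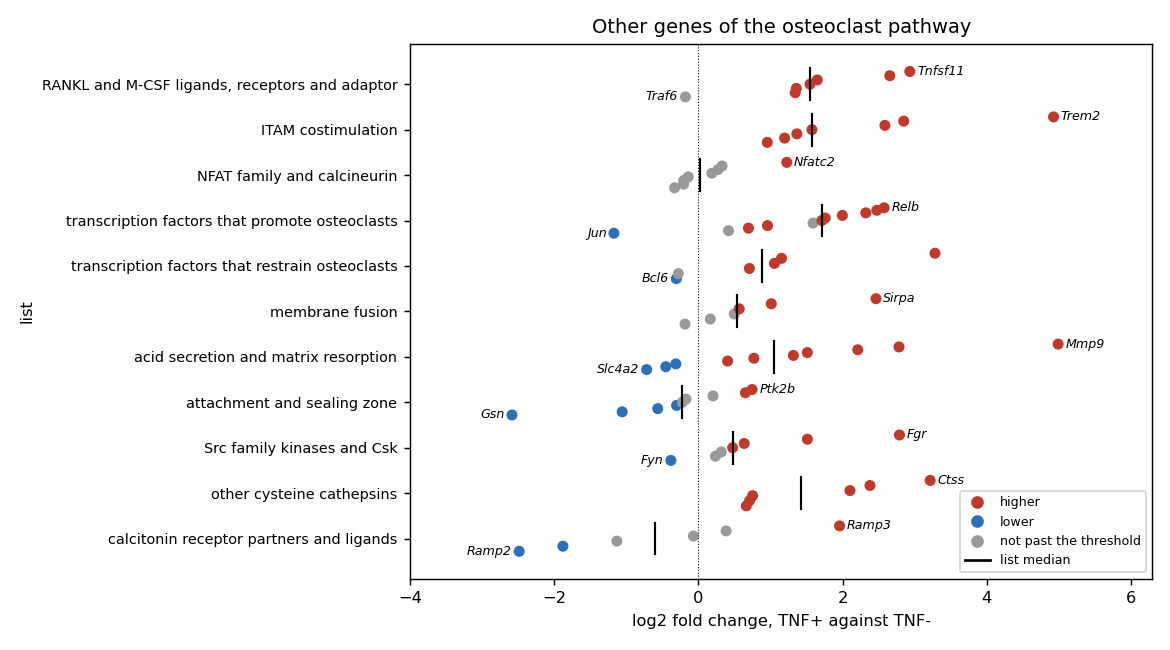
Log2 fold change, TNF+ against TNF- lungs, of 83 tested genes in 11 groups of the osteoclast pathway, each point 1 gene, coloured by its call, with a vertical line at the group median. Medians are 1.55 for the RANKL and M-CSF group and 1.58 for the ITAM group, 0.02 for the NFAT family and calcineurin, and -0.22 for attachment.

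Oscar and Calcr encode surface receptors of the osteoclast, and both had at most 13 counts in any lung. Oscar (chr7:3609813-3616157 in GRCm38, minus strand) is an activating immunoreceptor that binds collagen. It had 3, 7 and 4 counts in TNF+ and 8, 6 and 4 counts in TNF- lungs, and the genotypes overlapped. TNF+ lungs had a mean CPM of 0.163 ± 0.0615 (SD, n = 3), against 0.187 ± 0.0658 (SD, n = 3) for TNF- lungs, with a two-sided exact permutation p of 0.6. The ratio of summed counts, relative to TMM library sizes, was 0.899, with an exact 95% interval of 0.414 to 1.91 that covers counting error only, so differences within that range were not detectable at this depth.

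Calcr (chr6:3685680-3764714, minus strand), the calcitonin receptor through which that hormone inhibits the osteoclast, had 1, 4 and 1 counts in TNF+ and 13, 4 and 5 in TNF- lungs. The highest count, 13 of the 22 over the TNF- lungs, was in TNF- lung 1, the lung that stood apart through squamous, muscle and bone marker genes. The difference in mean CPM was -0.16 (two-sided exact permutation p = 0.2), and it was -0.07 without that lung (two-sided exact permutation p = 0.4). The ratio of summed counts was 0.315, and its exact 95% interval of 0.105 to 0.802, which covers counting error only and not the spread between lungs, lay below 1. Without TNF- lung 1, an alternative added after the data were seen, the counts were 6 against 9, the ratio was 0.519 and the interval, 0.152 to 1.63, included 1. Of the receptor's relatives, accessory proteins and ligands, 1 of 6 was higher and 2 were lower. Ramp3 rose by a log2 fold change of 1.96, while Ramp2 and Calcrl, which together form an adrenomedullin receptor of endothelium, had log2 fold changes of -2.49 and -1.88. In the same lungs 5 of 6 endothelial markers were lower, with a summed level of 1332 to 1789.6 CPM in TNF+ and 2642 to 3043 CPM in TNF- lungs, and their part in the result was not tested.

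Itgb3 (chr11:104608000-104670476, plus strand) encodes the integrin β3 chain, which pairs with αv in the osteoclast and with αIIb in the platelet. Its normalised read count was 926, 1100.4 and 834 in TNF+ lungs 1, 2 and 3, and 2042, 1609 and 1661 in TNF- lungs 1, 2 and 3. Every TNF+ lung was below every TNF- lung, and TNF- lung 1 was the highest. The means were 954 ± 135 (SD, n = 3) and 1771 ± 236 (SD, n = 3), a 1.86-fold lower level in TNF+ lungs. The log2 fold change was -0.90 with a standard error of 0.14 (edgeR adjusted p = 0.00122), and it lay between -1.01 and -0.80 when each lung was left out in turn.

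The partner chains of β3 did not move alike. Itga2b, the αIIb chain, had 204, 336 and 211 counts in TNF+ and 2642, 1911 and 2884 counts in TNF- lungs, and it fell by 3.09 on the log2 scale (standard error 0.22, edgeR adjusted p = 2.89e-05). Itgav, the αv chain, had 665, 727 and 936 counts in TNF+ and 947, 657 and 727 in TNF- lungs, with a log2 fold change of 0.20 and an adjusted p of 0.32 in edgeR. Per exon length, the ratio of Itgb3 to Itga2b was therefore 3.18, 2.92 and 3.87 in TNF+ against 0.751, 0.811 and 0.598 in TNF- lungs. The ratio of Itgb3 to Itgav was 1.92, 2.66 and 1.72 in TNF+ against 4.13, 4.65 and 4.68 in TNF- lungs. Neither ratio overlapped between the genotypes, and each had a two-sided exact permutation p of 0.1, the smallest possible.

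Platelet and megakaryocyte markers moved with Itgb3: 7 of 8 were lower, and their summed level was 81.2 to 99.7 CPM in TNF+ and 161 to 235 CPM in TNF- lungs. The exception was Pf4, which was higher and made up 75.5% to 79.5% of the sum in TNF+ but 8.73% to 11.5% in TNF- lungs. Without Pf4 the sum was 17.2 to 24.4 CPM in TNF+ and 144 to 214 CPM in TNF- lungs. None of the 8 was at 0 in every lung, and their part in the fall of Itgb3 was not tested.

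Src (chr2:157418444-157471862, plus strand) encodes the tyrosine kinase needed for the ruffled border, the membrane through which the osteoclast resorbs bone. Its normalised read count was 2702, 2877 and 2726 in TNF+ lungs 1, 2 and 3, and 1931, 1899.8 and 1788 in TNF- lungs 1, 2 and 3. The groups did not overlap and the spread within each was small, with means of 2768 ± 94.6 (SD, n = 3) and 1873 ± 75.1 (SD, n = 3). The level was 1.48-fold higher in TNF+ lungs, a log2 fold change of 0.56 with a standard error of 0.08 (edgeR adjusted p = 0.00106).

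Around Src and the integrin, genes of attachment and the sealing zone moved in both directions, with 2 of 9 higher, 4 lower and a median log2 fold change of -0.22. The kinase Ptk2b (Pyk2) and the adaptor Cbl, which act with Src at the integrin, rose by log2 fold changes of 0.74 and 0.65. The actin-severing protein gelsolin, Gsn, had 15710, 16254 and 19070 counts in TNF+ and 124166, 128563 and 102921 in TNF- lungs, so that it fell by 2.59 on the log2 scale, and Sh3pxd2a, a podosome scaffold, fell by 1.06. Of the other Src family kinases and Csk, 4 of 7 were higher and 1 was lower. The myeloid kinase Fgr rose by a log2 fold change of 2.79. Fyn had a log2 fold change of -0.38, whose adjusted p in edgeR was 0.0191, and between 0.00498 and 0.0654 when each lung was left out in turn, above 0.05 without TNF+ lung 1 or 2 or TNF- lung 1 or 2.

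Dcstamp (chr15:39745930-39760938, plus strand) encodes DC-STAMP, a membrane protein required for the fusion of osteoclast precursors, and it had the largest fold change of the members tested. Its counts were 181, 293 and 187 in TNF+ lungs 1, 2 and 3, and 19, 6 and 12 in TNF- lungs 1, 2 and 3. The lowest TNF+ lung was far above the highest TNF- lung. As normalised read counts the TNF+ mean was 240 ± 63.3 (SD, n = 3), against a TNF- mean of 11.5 ± 6.20 (SD, n = 3). The log2 fold change was 4.36 with a standard error of 0.39, a 20.6-fold higher level (edgeR adjusted p = 7.73e-05), a description given how the gene passed the filter. From the summed counts alone the ratio was 20.7, with an exact 95% interval of 14.8 to 29.6 for counting error only.

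Ocstamp (chr2:165393760-165400405, minus strand), the second fusion protein of this kind, had far fewer counts, 15, 28 and 13 in TNF+ and 4, 2 and 5 in TNF- lungs. The groups did not overlap, although the TNF- lungs were near the floor of 3 counts. The log2 fold change was 2.53 with a standard error of 0.51 (edgeR adjusted p = 0.00446, likewise a description), and the ratio of summed counts was 5.89, with an exact 95% interval of 3.05 to 12.5 for counting error only.

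Atp6v0d2 (chr4:19876841-19922605, minus strand) encodes the d2 subunit of the vacuolar proton pump, which is also needed for fusion. Its normalised read count was 2341, 3148 and 1636 in TNF+ lungs 1, 2 and 3, and 526, 669.7 and 620.0 in TNF- lungs 1, 2 and 3. The genotypes did not overlap, and TNF+ lung 2 was the highest, as it was for Dcstamp, Ocstamp, Acp5 and Ctsk. Means were 2375 ± 757 (SD, n = 3) and 605 ± 72.9 (SD, n = 3). TNF+ lungs were 3.92-fold higher, which is 1.97 on the log2 scale with a standard error of 0.22 (edgeR adjusted p = 0.000265). The paralogous d1 subunit Atp6v0d1, which is expressed widely, had 3392, 4726 and 3923 counts in TNF+ and 3368, 3387 and 3819 in TNF- lungs. The difference was 0.41 on the log2 scale with an edgeR adjusted p of 0.0223, and the adjusted p was above 0.05 in 4 of the 6 fits that left out 1 lung. Per exon length, the ratio of Atp6v0d2 to Atp6v0d1 was 0.345, 0.425 and 0.291 in TNF+ and 0.108, 0.136 and 0.120 in TNF- lungs, with no overlap and a two-sided exact permutation p of 0.1, the smallest possible.

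Other genes of membrane fusion were higher in 3 of 6 cases and lower in none, with a median log2 fold change of 0.53. Sirpa, a macrophage receptor for CD47, had 13962, 17994 and 17677 counts in TNF+ and 3345, 3575 and 3491 in TNF- lungs, a 5.52-fold higher level. Cd44, the hyaluronan receptor, was 2.02-fold higher.

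**Figure D3:**
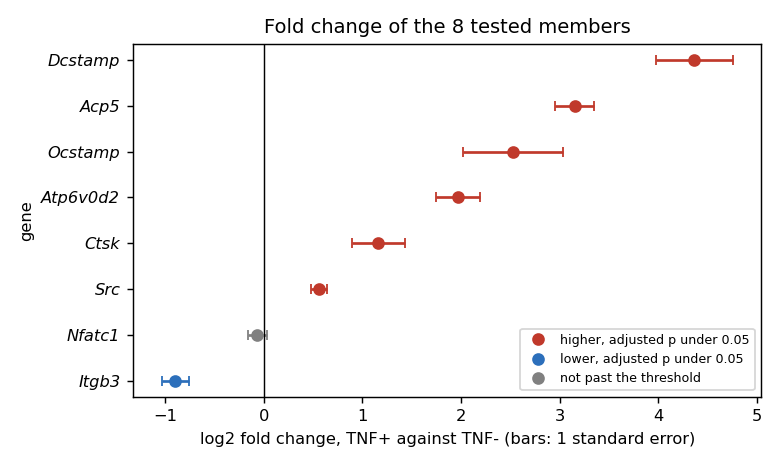
Log2 fold change, TNF+ against TNF- lungs, of the 8 tested members, with bars of 1 standard error and colours for the call at an adjusted p under 0.05. Dcstamp (4.36) and Acp5 (3.15) lie at the top, Nfatc1 (-0.06) at zero and Itgb3 (-0.90) below it.

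Acp5 (chr9:22126727-22135711, minus strand) encodes tartrate-resistant acid phosphatase, the enzyme stained to count osteoclasts and also made by activated macrophages. Its normalised read count was 5626, 5893 and 4110.3 in TNF+ lungs 1, 2 and 3, and 478, 562 and 718 in TNF- lungs 1, 2 and 3. The lowest TNF+ lung was well above the highest TNF- lung. Means were 5209.8 ± 962 (SD, n = 3) and 586 ± 122 (SD, n = 3), an 8.88-fold higher level in TNF+ lungs. The log2 fold change was 3.15 with a standard error of 0.20 (edgeR adjusted p = 1.55e-05), and it lay between 3.00 and 3.31 when each lung was left out in turn. An antisense gene model, 6530413G14Rik, covers the whole of Acp5, and reads from it could not be told apart without the strand setting of the counting.

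Ctsk (chr3:95499256-95509362, plus strand) encodes cathepsin K, the collagen-degrading protease of the osteoclast, which fibroblasts also make. Its normalised read count was 757, 1328 and 820.2 in TNF+ lungs 1, 2 and 3, and 326, 392.4 and 578 in TNF- lungs 1, 2 and 3. The genotypes did not overlap, but TNF- lung 3 came close to TNF+ lung 1. The level was 2.24-fold higher in TNF+ lungs, a log2 fold change of 1.16 with a standard error of 0.27 (edgeR adjusted p = 0.00843). When each lung was left out in turn the log2 fold change lay between 0.87 and 1.42 and the adjusted p reached at most 0.037. Fibroblast markers went the other way, with 5 of 7 lower and none higher and a summed level of 927 to 1119 CPM in TNF+ and 1608 to 2404 CPM in TNF- lungs. Without TNF+ lung 1, 2 or 3 or TNF- lung 1 the count of lower markers was 3, and their part in the Ctsk values was not tested.

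The ratio of Acp5 to Ctsk per exon length was 5.54, 3.30 and 3.73 in TNF+ lungs and 1.09, 1.07 and 0.925 in TNF- lungs. The TNF- lungs were thus near equal levels of both transcripts, and no TNF+ lung overlapped them (two-sided exact permutation p = 0.1, the smallest possible). The 5 ratios between partner genes given here were chosen after their values were seen, and their p adjusted over the 5 was 0.1 each.

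Of 10 other genes of acid secretion and matrix resorption, 7 were higher and 3 were lower, with a median log2 fold change of 1.04. Without TNF+ lung 1 or 2 or TNF- lung 1 or 2 a single gene was called lower. Mmp9, the gelatinase of osteoclasts and neutrophils, had 12059, 18224 and 14428 counts in TNF+ and 470, 503 and 663 in TNF- lungs. This was a 31.8-fold higher level, with a log2 fold change of 4.99 and a standard error of 0.18 (edgeR adjusted p = 2.72e-06). Mmp14, a membrane-bound collagenase, rose by a log2 fold change of 2.78. The anion exchanger Slc4a2 and carbonic anhydrase 2, Car2, which supply bicarbonate exchange and protons for acid secretion, had log2 fold changes of -0.72 and -0.45, and the adjusted p of Car2, 0.0181 in edgeR, was above 0.05 in 5 of the alternatives. All 6 other cysteine cathepsins tested were higher, with a median of 1.43, led by Ctss and Ctsz at log2 fold changes of 3.22 and 2.38. Over all 84 pathway genes outside the 10, 83 were tested, 49 were higher and 12 lower, with a median of 0.71. Over all genes tested, 24% were higher and 23.4% lower.

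Macrophage markers moved with these genes. All 5 general macrophage markers were higher, with a summed level of 6875 to 8455 CPM in TNF+ and 2589.7 to 2839 CPM in TNF- lungs, of which Lyz2 made up 88.6% to 92.5% and 95.3% to 95.8%. Each fit that left out 1 lung called 3 or 4 of the 5, with 3 without TNF+ lung 1, TNF- lung 1 or TNF- lung 3, and Fcgr1 overlapped between the genotypes. Without Lyz2 the sum was 632 to 781 CPM in TNF+ and 116 to 127 CPM in TNF- lungs. All 6 interstitial macrophage markers were higher (2400.3 to 2619 against 115 to 182 CPM), as were 4 of 5 markers of lipid-laden macrophages (1354 to 1939 against 206 to 286 CPM) and 3 of 4 of monocytes (211 to 243 against 98.3 to 102 CPM). Gpnmb made up 43.0% to 53.1% of the lipid-laden sum in TNF+ and 6.64% to 9.40% in TNF- lungs, and the rest of that list summed to 730.2 to 908 CPM and 187 to 267 CPM. Alveolar macrophage markers were split, with 2 of 8 higher and 4 lower. Their sum was 2207 to 3459.9 CPM in TNF+ and 278 to 373 CPM in TNF- lungs, and Marco made up 77.1% to 88.8% of it in TNF+ and 3.12% to 8.22% in TNF- lungs. The rest of that list summed to 389 to 536 CPM in TNF+ and 269 to 342 CPM in TNF- lungs. No macrophage marker was at 0 in every lung, and their part in the rise of Acp5, Ctsk, Atp6v0d2, Dcstamp and Ocstamp was not tested.

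Markers of bone-forming cells were at low levels in both genotypes, with a summed level of 2.13 to 3.58 CPM in TNF+ and 2.61 to 3.98 CPM in TNF- lungs. Of 7 such markers 2 could be tested and 1 was higher, and the defining markers Sp7 and Ibsp had at most 3 counts in every lung. Dmp1 had 0, 7 and 5 counts in TNF+ and 0 in each TNF- lung, Bglap and Bglap2 were high in TNF- lung 1 alone, and the gene called higher was Sost (edgeR adjusted p = 0.0429), whose call was lost in 5 of the 6 fits that left out 1 lung. Lung epithelium, the check of the tissue itself, summed to 20352 to 22641 CPM in TNF+ and 36003 to 45709 CPM in TNF- lungs, with 4 of 6 markers lower. T cell markers were higher in 5 of 6 cases (377 to 481 against 43.1 to 82.2 CPM) and B cell markers in 2 of 4 (166 to 193 against 81.6 to 147 CPM). Cd4 made up 78.0% to 82.9% of the T cell sum in TNF+ and 19.2% to 23.5% in TNF- lungs. The rest of that list summed to 72.1 to 84.3 CPM and 33.8 to 62.9 CPM. Of 5 neutrophil markers 1 was higher and 3 were lower (60.7 to 94.6 against 81.7 to 144 CPM), but 0 were higher without TNF+ lung 1 or 3 or TNF- lung 1 or 2, and 1 was lower without TNF+ lung 2 or 3 or TNF- lung 3. Skeletal muscle and squamous markers reached 1338 and 3392 CPM in TNF- lung 1 and at most 34.8 and 26.6 CPM in any other lung.

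**Figure D4:**
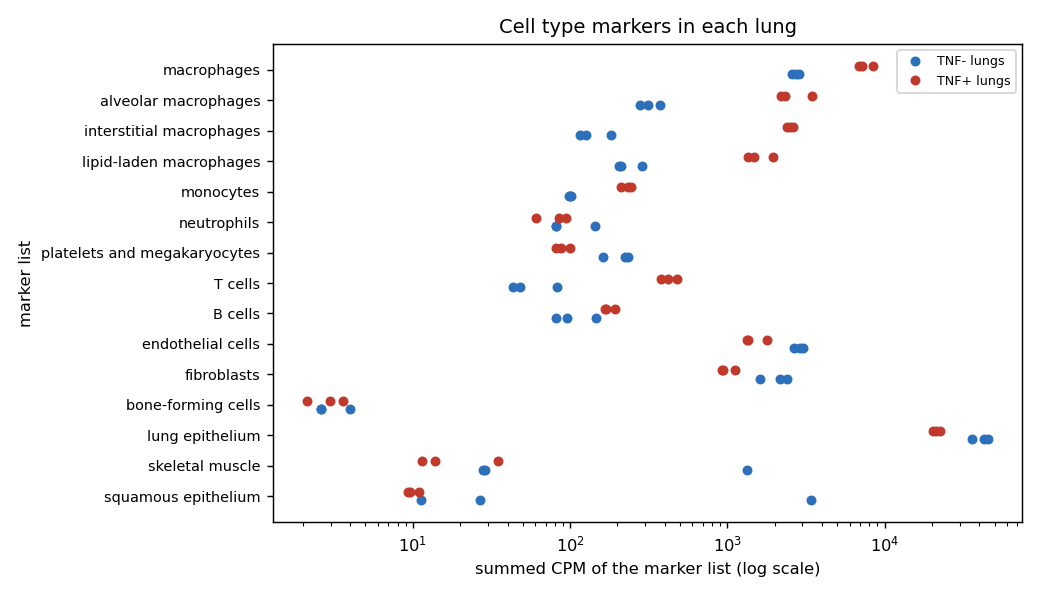
Summed CPM (log scale) of 15 cell type marker lists, each point 1 lung, with TNF- in blue and TNF+ in red. The 4 macrophage lists, monocytes, T cells and B cells lie higher in all TNF+ lungs, platelets, endothelium, fibroblasts and lung epithelium lie lower, and a single TNF- lung stands far to the right for skeletal muscle and squamous epithelium.

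Each member was also expressed per macrophage marker count within the same lung, a ratio that does not depend on library size and is not a level per macrophage. Lyz2 made up most of the general list in every lung, and whether cells other than macrophages supplied its counts was not tested. Per 1000 counts of the 5 general macrophage markers, Acp5 had 23.3, 27.6 and 17.7 counts in TNF+ and 5.83, 6.96 and 8.76 counts in TNF- lungs. For Dcstamp the values were 0.990, 1.42 and 0.760 in TNF+ against 0.221, 0.0712 and 0.130 in TNF- lungs. Acp5 was higher in every TNF+ lung on this scale, by a mean log2 difference of 1.67. Dcstamp was higher by 2.94, also in every TNF+ lung, a description given how the gene passed the filter. Nfatc1, Itgb3 and Src were lower in every TNF+ lung, with mean log2 differences of -1.55, -2.38 and -0.92. Each of these 5 had a two-sided exact permutation p of 0.1, the smallest possible, and 0.16 after adjustment over the 8 members. Atp6v0d2 (0.44, p = 0.3), Ocstamp (0.93, p = 0.2) and Ctsk (-0.33, p = 0.5) overlapped between the genotypes in the same exact test.

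The choice of macrophage markers moved these ratios. With interstitial markers in the denominator the log2 differences of Acp5 (-1.06), Ctsk (-3.06), Atp6v0d2 (-2.29) and Ocstamp (-1.80) were negative without overlap. Dcstamp gave 0.21 with these markers, with overlapping genotypes (two-sided exact permutation p = 0.7). With alveolar markers Ctsk (-1.91) and Atp6v0d2 (-1.14) were lower and Dcstamp (1.37) was higher, each without overlap. Acp5 gave 0.09 with alveolar markers, with overlapping genotypes (two-sided exact permutation p = 0.7). Because Lyz2 dominated the general list, it was also removed, an alternative added after the data were seen, and the differences were then 0.64 for Acp5, 1.91 for Dcstamp, -0.59 for Atp6v0d2, -0.10 for Ocstamp and -1.36 for Ctsk. With alveolar markers without Marco, also added after the data were seen, Src overlapped between the genotypes (log2 difference -0.07, two-sided exact permutation p = 0.7), while its difference lay between -3.65 and -0.92 with the other 4. The same denominator gave non-overlapping higher ratios for Acp5 (2.52) and Atp6v0d2 (1.30), each at the smallest possible p of 0.1 in the exact test. Dcstamp (3.8) and Ocstamp (1.79) were also higher without overlap, at the same p. With every denominator the ratios of Dcstamp and Ocstamp are a description, because both genes passed the filter on low counts only through the TNF+ lungs. Over the 5 denominators the differences ranged from -4.28 to -0.69 for Nfatc1 and from -5.11 to -1.52 for Itgb3, without overlap in any.

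**Figure D5:**
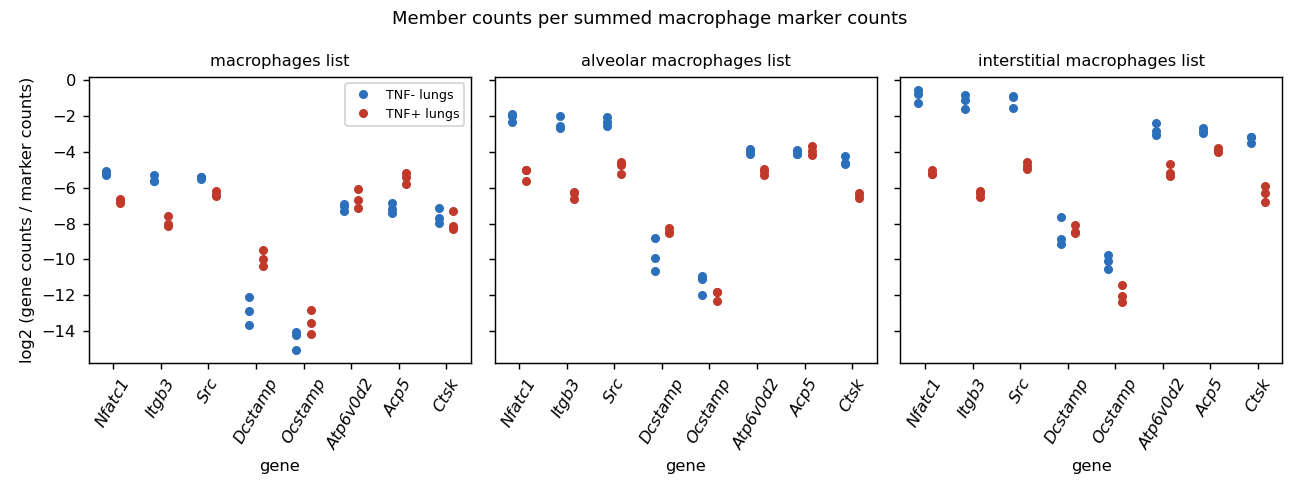
Log2 ratio of each tested member to the summed counts of 3 macrophage marker lists within each lung, with TNF- lungs in blue and TNF+ lungs in red. Acp5 and Dcstamp lie higher in TNF+ lungs in the first panel, while in the panel for interstitial markers Acp5 lies lower and Dcstamp overlaps.

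On the RPKM scale, which divides CPM by exon length, the order of the 10 genes differed between the genotypes. In TNF+ lungs Acp5 had the highest mean level, 83.2 ± 9.84 (SD, n = 3), followed by Atp6v0d2 at 28.3, Ctsk at 21.0, Src at 20.8, Nfatc1 at 9.33, Itgb3 at 5.27 and Dcstamp at 2.92 RPKM. Ocstamp, Oscar and Calcr were below 1 RPKM. Neighbours in this order overlapped for Atp6v0d2 and Ctsk, for Ctsk and Src, and for Ocstamp and Oscar. In TNF- lungs Src was highest, 14.3 ± 0.442 (SD, n = 3), and Itgb3, Nfatc1, Acp5, Ctsk and Atp6v0d2 followed between 10.02 and 7.43 RPKM, each overlapping the next. Dcstamp, at 0.145 RPKM, was then among the lowest 4 genes, which also overlapped in sequence.

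Across the 6 lungs, the genes whose log2 CPM correlated most highly with that of each tested member were taken from 11298 genes. The genotype difference is part of each correlation. For Acp5 they were Panx1, Ccl9 and Rgs10 (Pearson r of 1.00, 0.999 and 0.999), and for Src they were Tfe3, Adap2 and Ltbp2 (1.00, 0.999 and 0.999). Itgb3 was closest to Pde7b, Calcoco1 and Hmgxb3 (0.998, 0.996 and 0.995). For Nfatc1, which did not pass the test, the closest were Gm10925, the mitochondrial gene mt-Atp6, and Gm13339 (0.988, 0.983 and 0.976). Ctsk was closest to BC026585, Coro7 and Rnf220, Atp6v0d2 to 9030624J02Rik, Rps25 and Dtnbp1, Dcstamp to Mrpl45, Ints12 and Sept9, and Ocstamp to Igkv3-2, Gm11425 and Tmem5, with r from 0.991 to 0.999. Pearson r takes no account of the size of a change. The log2 fold change was 4.36 for Dcstamp but 0.65, 1.13 and 0.51 for Mrpl45, Ints12 and Sept9, while Igkv3-2, at 5.97, exceeded Ocstamp, at 2.53. With 6 points in 2 clusters, these correlations describe these lungs only.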

How the data were processed

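Gene counts were deposited by the authors as 1 raw count table of 49568 symbols and 6 lungs. Per the labels and methods, TruSeq Stranded mRNA libraries were sequenced as single-end 100 bp reads, trimmed with Trimmomatic (0.36 in the submitters' processing notes), aligned to GRCm38.p5 with STAR 2.5.2b and counted with featureCounts. The annotation and strand setting are not given in the sources used here. Counts were tested in R 4.3.3 with edgeR 4.0.16 (filterByExpr, TMM, quasi-likelihood test of genotype, Benjamini-Hochberg over 19199 genes). Two-sided exact permutation tests of single values used scipy 1.17.1. DESeq2 1.42.0, limma 3.58.1 (voom), other scalings, filters, a replicate block and omission of each lung were alternatives. Exon lengths and positions came from GENCODE M21.

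The members and the gene lists (11 pathway, 15 marker lists) were chosen with earlier results of these data known. Named are all members, 10 further fixed genes, and from each pathway list the 2 largest rises and 2 largest falls past the threshold; the 3 genes most like each member were taken by Pearson r. Results for 2 genes that this rule names are not reported here. Other genes named for a marker list or library, and the partner ratios, were chosen after their values were seen. Replicate numbers did not mark shared litters or days in the labels. Intervals and floors cover counting error only, and p-values measure the spread between 3 mice per genotype.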

Additional observations from a re-analysis of the deposited data

How the results depend on the processing

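No tested member changed its direction or its side of the threshold under DESeq2, limma-voom, DESeq2 size factors, total counts, another filter, robust dispersion or omission of any lung, where it could be fitted; requiring at least 10 counts in every lung removed Dcstamp and Ocstamp. Adding an absolute log2 fold change of at least 1 to the call left 1980 genes higher and 2340 lower over all genes, 0 members lower (Itgb3 was lost, and Src among those higher) and 5 pathway genes lower. Omission of single lungs gave 7 to 15 pathway genes lower, with 7 when TNF+ lung 1, TNF+ lung 2 or TNF- lung 2 was left out; the losses were of small changes such as Bcl6, Car2 and Fyn. With a replicate block, all genes gave 3827 higher and 3859 lower, and the members stayed at 6 higher and 1 lower. Correlations between same-numbered lungs were -0.149, -0.0043 and -0.242. With 3 mice per genotype these values cannot decide whether the numbers pair the lungs. The CPM difference of Oscar ranged from -0.0597 to 0.00903 and turned positive without TNF- lung 1. Ratios per macrophage marker changed sign with alveolar markers (Atp6v0d2 -1.14, Ocstamp -0.65), with interstitial markers (Acp5 -1.06, Atp6v0d2 -2.29, Ocstamp -1.80), and, added after the data were seen, without Lyz2 (Atp6v0d2 -0.59, Ocstamp -0.10) and with alveolar markers without Marco (Ctsk 0.53); the cause was not tested. With the longest transcript as length, 8 of 10 members kept their rank in TNF+ and 7 in TNF- lungs. Depth limits Oscar, Calcr and Ocstamp, and 3 mice per genotype allow no exact permutation p under 0.1.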
